A study of Mus musculus with 6 samples.

Results

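The genes described here are the 4 LIM-only genes of the mouse (*Lmo1*, *Lmo2*, *Lmo3* and *Lmo4*) and 6 genes whose products assemble with LIM-only proteins (*Ldb1*, *Ldb2*, *Ssbp2*, *Ssbp3*, *Tal1* and *Lyl1*). They were chosen by name and by known protein interaction, and they make up 10 of the 24421 gene symbols counted. The study asked what LMO3 does in fat cells that are already differentiated, and profiled RNA from 3T3-L1 cells, a mouse line that becomes adipocyte-like in culture, listed in the labels under the strain C57BL/6. One group received a control adenovirus carrying *LacZ* (AdLacZ, 3 libraries) and the other an adenovirus carrying *Lmo3* (Ad*Lmo3*, 3 libraries), each library from a separate infection. Cells of both groups went through the same differentiation medium (insulin, a thiazolidinedione, dexamethasone and IBMX) and were infected on day 7 with 100 pfu per cell, and RNA was taken 72 h later, so that adenoviral infection itself is common to both groups. The *Lmo3* carried by the virus was codon-optimized according to the study's methods, and no uninfected cells were among the libraries.

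LMO proteins consist of little more than a pair of LIM zinc fingers, which bind proteins and not DNA, so that they work as bridges within larger complexes. LDB1 and LDB2 bind the LIM fingers and self-associate, and SSBP proteins bind the LDB proteins and protect them from degradation. In blood cells, LMO2 joins LDB1 to DNA-bound GATA factors and to dimers of TAL1 or LYL1 with E proteins, and LIM homeodomain factors compete with LMO proteins for the same LDB proteins.

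Gene counts summed to between 28035639 and 38332335 per library, where 3 counts, taken as the smallest detectable amount, correspond to 0.0768 to 0.111 CPM (read counts relative to the library total, scaled by edgeR's TMM method). Of 12766 genes with enough counts to test, 547 (4.28%) differed between the groups at an adjusted p under 0.05 in edgeR's quasi-likelihood test with Benjamini-Hochberg adjustment, 346 (2.71%) being higher and 201 (1.57%) lower in Ad*Lmo3*. Adipocyte markers were abundant, as a list of 10 summed to 19111 to 21248 CPM in AdLacZ libraries. The same list summed to 26225 to 31677 CPM in Ad*Lmo3* libraries, and 8 of its 10 genes rose. A list of 5 preadipocyte markers was also present, at 1139 to 1699 CPM in AdLacZ and 1288 to 1715 CPM in Ad*Lmo3* libraries, mostly *Dlk1*, with none called. The part of this shift in any result below was not tested, and in bulk RNA more cells of a type cannot be told apart from more RNA per cell. Lists of 6 endothelial and 5 leukocyte markers summed to at most 2.79 and 4.61 CPM in any library, with none of their genes called. In a list of 6 erythroid and mast cell markers, 4 were at 0 counts throughout.

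LMO3 itself is the bridge protein that was overexpressed. *Lmo3* (ENSMUSG00000030226, chromosome 6 of GRCm38, 138362918 to 138581968, minus strand) had 0 counts in all 3 AdLacZ and all 3 Ad*Lmo3* libraries. The endogenous gene was therefore below detection in these adipocytes, and the labels could not be checked through it, since reads from a recoded insert need not map to the mouse locus. The stretch that the study's Q-PCR primers for *Lmo3* span shows how the mouse *LMO* genes differ at the length of 1 read. It covers 75 bp of exon 3 of the 5-exon transcript, at chr6:138416448-138416522 (GRCm38, minus strand), and bases 99 to 173 of the coding sequence. The sequences were taken from GENCODE M21 transcripts and are shown because no read of that length from one gene would match another perfectly. Capitals mark the bases that differ from *Lmo3* in the aligned stretch of each paralogue.
Lmo3: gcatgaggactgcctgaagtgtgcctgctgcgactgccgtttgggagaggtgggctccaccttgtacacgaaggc
Lmo1: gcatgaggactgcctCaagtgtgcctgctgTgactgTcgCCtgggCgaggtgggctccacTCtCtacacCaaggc
Lmo2: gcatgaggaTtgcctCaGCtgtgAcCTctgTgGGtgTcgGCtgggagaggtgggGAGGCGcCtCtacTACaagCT
Lmo4: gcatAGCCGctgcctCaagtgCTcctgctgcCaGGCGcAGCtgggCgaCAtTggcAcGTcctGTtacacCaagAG

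*Lmo1* differed from *Lmo3* at 10 of these 75 bases, *Lmo2* at 26 and *Lmo4* at 28. The forward primer, gcatgaggactgcctgaagtg, had 1 mismatch with *Lmo1*, and the reverse primer, gccttcgtgtacaaggtggag, had 4. Over the whole coding sequence, *Lmo1* and *Lmo3* were identical at 346 of 438 aligned bases (79.0%). Their identity was 91.1% and 91.8% at the first and second codon positions and 54.1% at the third, the position where codons for the same amino acid mostly differ. The other 5 pairs among the 4 genes had identities of 54.9% to 62.2%, and no pair shared a stretch of 75 bases.

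LMO1 is the closest relative of LMO3 in coding sequence and best known from the nervous system and T cell leukaemia. Its gene was the only member counted in every Ad*Lmo3* library and in no AdLacZ library. *Lmo1* (ENSMUSG00000036111, chromosome 7, 109138572 to 109175207, minus strand) had 0 counts in each AdLacZ library. It had 15, 12 and 6 counts in Ad*Lmo3* replicates 1, 2 and 3. The groups did not overlap, although the counts were low. They correspond to 0.405, 0.326 and 0.222 CPM, a mean of 0.318 ± 0.0917 CPM (SD, n = 3). That mean was 3.82 times the mean level that 3 counts would give in an AdLacZ library. This ratio is a lower bound on the fold difference where the AdLacZ level lay under 3 counts. In all, 33 *Lmo1* reads were found among 103390292 gene counts in Ad*Lmo3* libraries and 0 among 105868012 in AdLacZ libraries. The bound covers counting error in the AdLacZ libraries only. Neither the counting error of the 33 Ad*Lmo3* reads nor variation between libraries enters it.

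*Lmo1* did not pass edgeR's filter on low counts, so it is not among the 12766 genes tested. Without that filter, over 18078 genes, edgeR's quasi-likelihood test gave *Lmo1* an adjusted p of 0.0116. DESeq2 gave an unadjusted p of 4.3e-05 and, because of its own filter, no adjusted p. *Lmo1* entered these fits through its Ad*Lmo3* counts alone and was singled out after its values were seen. Nothing is read from these p-values. With 3 libraries in each group, the smallest two-sided p of an exact permutation test is 0.1.

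The pattern was rare among all genes. Of the 24421 symbols, 7306 (29.9%) had no count in any AdLacZ library, and 963 of these had a count in at least 1 Ad*Lmo3* library. Only 31 (0.127%) had a count in each Ad*Lmo3* library, and *Lmo1* was the single one (0.00409%) with at least 3 in each. After *Lmo1*, 8 genes had at least 2 counts in each Ad*Lmo3* library, and the next largest sum was 14 reads for *B3galt5*, all of them in Ad*Lmo3* replicate 1. In the reverse direction, 2 genes (0.00819%), *Hist1h2bb* and *Mir5619*, had no count in Ad*Lmo3* and at least 3 in each AdLacZ library. *Lmo1* was singled out here after its values were seen. Whether its reads came from the *Lmo1* locus or from the viral *Lmo3* insert cannot be told apart in gene counts, because the insert's sequence was not analysed here and the tables do not say where in a gene a read lay.

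**Figure D1:**
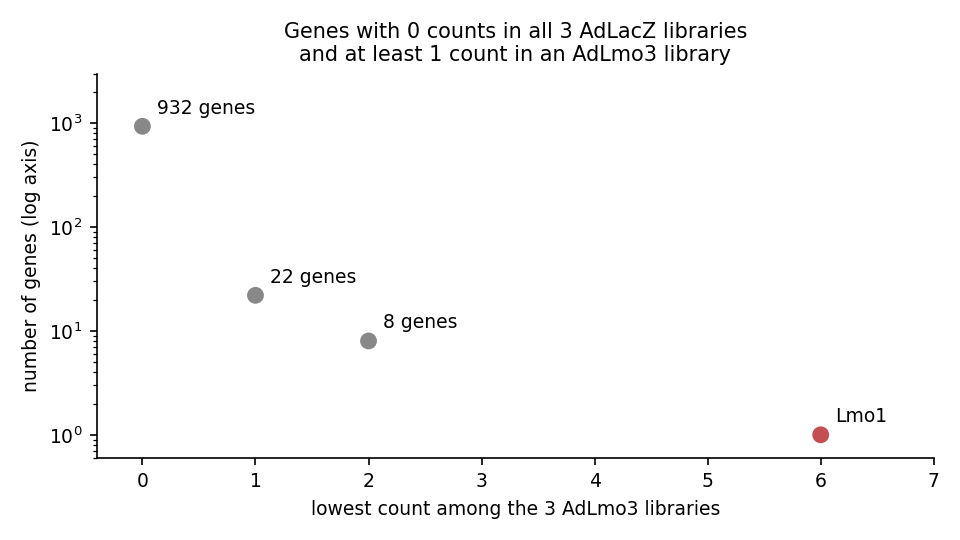
Genes with 0 counts in all 3 AdLacZ libraries and a count in at least 1 Ad*Lmo3* library, grouped by their lowest count among the 3 Ad*Lmo3* libraries (x axis), with the number of genes on a log y axis. There were 932 genes at a lowest count of 0, 22 at 1 and 8 at 2, and *Lmo1* stood alone at 6.

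*Lmo4* (ENSMUSG00000028266, chromosome 3, 144188530 to 144205220, minus strand), a widely expressed LIM-only gene, held nearly all reads counted to the 4 mouse *LMO* genes. Its level was 109, 115 and 118 CPM in AdLacZ replicates 1, 2 and 3 and 104, 115 and 123 CPM in Ad*Lmo3* replicates 1, 2 and 3. The groups overlapped, with means of 113.9 ± 4.66 and 114.1 ± 9.65 CPM (SD, n = 3 each). The log2 fold change was 0.00 (SE 0.0781, 95% confidence interval -0.18 to 0.18, adjusted p = 0.994, edgeR), and its sign turned without scaling beyond the library total and without AdLacZ replicate 1 or Ad*Lmo3* replicate 2 or 3. *Lmo4* made up between 99.30% and 99.72% of the counts of the 4 *LMO* genes in every library. These shares leave out mRNA of the viral *Lmo3* insert that was not counted to the mouse genes, so they do not describe all LIM-only mRNA in Ad*Lmo3* cells. Where *Lmo1* was counted, in Ad*Lmo3* replicates 1, 2 and 3, it made up 0.386%, 0.282% and 0.179%.

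*Lmo2* (ENSMUSG00000032698, chromosome 2, 103957986 to 103981878, plus strand), the LIM-only gene of blood and endothelial cells, was close to the limit of detection. It had 11, 19 and 12 counts in AdLacZ and 12, 15 and 7 counts in Ad*Lmo3* libraries. The groups overlapped at 0.383 ± 0.0921 and 0.330 ± 0.0743 CPM (SD, n = 3 each), with a log2 fold change of -0.20 whose 95% confidence interval ran from -1.01 to 0.60 (adjusted p = 0.800, edgeR). Without AdLacZ replicate 2, which had the most reads, the log2 fold change was 0.016. In Ad*Lmo3* replicate 1, *Lmo1* had more reads than *Lmo2*, and over the 3 Ad*Lmo3* libraries the counts of both genes overlapped.

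**Figure D2:**
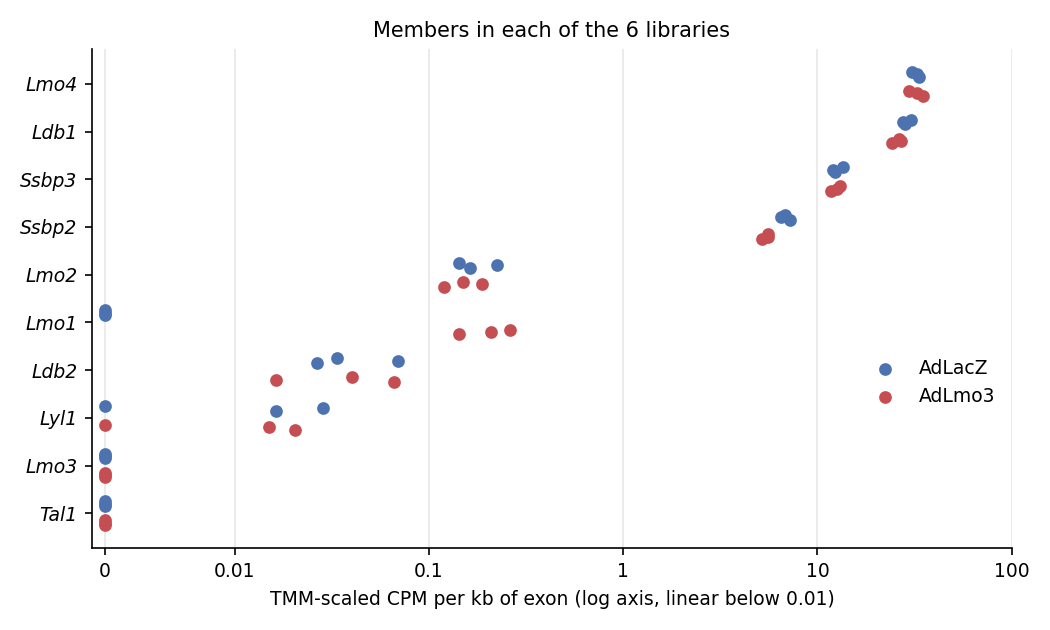
Level of each of the 10 genes in each library, in TMM-scaled CPM per kb of exon on an axis that is logarithmic above 0.01 and linear below it. Dots are the 3 AdLacZ (blue) and 3 Ad*Lmo3* (red) libraries. *Lmo4*, *Ldb1*, *Ssbp3* and *Ssbp2* lie above 1 in every library, the others lie below 1, and *Lmo1* has a level above 0 in the 3 Ad*Lmo3* libraries only.

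The LDB proteins are the scaffolds to which LMO proteins bind. *Ldb1* (ENSMUSG00000025223, chromosome 19, 46031570 to 46045214, minus strand) had 139, 127 and 130 CPM in AdLacZ replicates 1, 2 and 3. It had 121, 124 and 112 CPM in Ad*Lmo3* replicates 1, 2 and 3. All 3 Ad*Lmo3* libraries were below all 3 AdLacZ libraries, but the difference was small (132 ± 6.20 against 119 ± 6.39 CPM, SD, n = 3 each) and did not pass the test. The log2 fold change was -0.15 (SE 0.0699, 95% confidence interval -0.31 to 0.01, adjusted p = 0.270, edgeR). Exons of *Ldb1* overlap *Pprc1* on the opposite strand by 177 bp, and 2.19% of its stretches of 75 bp occur in that gene.

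*Ldb2* (ENSMUSG00000039706, chromosome 5, 44472132 to 44799680, minus strand) encodes the other LDB scaffold and was barely counted. It had 4, 9 and 3 counts in AdLacZ and 5, 2 and 6 counts in Ad*Lmo3* libraries, which overlapped and lay near the detectable minimum. *Ldb1* accordingly held 99.80% to 99.96% of the counts of both *LDB* genes.

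Of the SSBP genes measured, *Ssbp2* fell, and *Ssbp3* and *Ssbp4*, a relative taken from the pathway lists, were not called. *Ssbp2* (ENSMUSG00000003992, chromosome 13, 91460283 to 91703429, plus strand) had 54.3, 51.7 and 57.8 CPM in AdLacZ replicates 1, 2 and 3. It had 44.3, 44.5 and 41.3 CPM in Ad*Lmo3* replicates 1, 2 and 3. The groups were well separated, with means of 54.6 ± 3.05 and 43.4 ± 1.80 CPM (SD, n = 3 each). *Ssbp2* fell by 0.33 on the log2 scale (SE 0.0671, 95% confidence interval -0.49 to -0.18, adjusted p = 0.0340, edgeR), and it was the single member called among the 5 members tested, where 4.28% of all tested genes were called and 1.57% called lower. The call was a narrow one. The direction held without each library in turn, with log2 fold changes of -0.37 to -0.29, but the adjusted p rose to 0.0856, 0.0523 and 0.145 without AdLacZ replicate 1, 2 or 3, and to 0.0642, 0.108 and 0.104 without Ad*Lmo3* replicate 1, 2 or 3. In *Ssbp2*, 21.4% of stretches of 75 bp also occur in other genes, mostly in *4833422C13Rik*, which overlaps it by 1765 bp on the opposite strand. That overlapping gene had 0 counts in all 6 libraries, and reads from either strand there cannot be told apart where counting ignored strand.

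*Ssbp3* (ENSMUSG00000061887, chromosome 4, 106910701 to 107049694, plus strand), which encodes a close relative with the same LDB-binding role, had 88.6, 79.2 and 81.2 CPM in AdLacZ replicates 1, 2 and 3 and 86.4, 82.5 and 77.3 CPM in Ad*Lmo3* replicates 1, 2 and 3. These values overlapped, and the log2 fold change was -0.02 (SE 0.0713, 95% confidence interval -0.18 to 0.15, adjusted p = 0.932, edgeR). Its sign turned without AdLacZ replicate 1 (0.03) and without Ad*Lmo3* replicate 3 (0.03). *Ssbp4*, named here after its values were seen, had 23.3, 19.8 and 18.7 CPM in AdLacZ replicates 1, 2 and 3 and 20.8, 19.98 and 20.9 CPM in Ad*Lmo3* replicates 1, 2 and 3. The groups overlapped, and the log2 fold change lay near 0, at -0.0040 (95% confidence interval -0.23 to 0.22, adjusted p = 0.988, edgeR), with a sign that turned without AdLacZ replicate 1 or Ad*Lmo3* replicate 2. Per kb of exon its mean of 6.50 CPM over the 6 libraries was close to that of *Ssbp2*.

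Set against each other per length of exon, *Ssbp2* made up 33.6%, 35.0% and 37.0% of the summed *Ssbp2* and *Ssbp3* level in AdLacZ replicates 1, 2 and 3. The share was 29.7%, 30.8% and 30.6% in Ad*Lmo3* replicates 1, 2 and 3. The groups did not overlap, and the means were 35.2 ± 1.73% and 30.4 ± 0.570% (SD, n = 3 each). The difference of -4.82 percentage points had an exact two-sided permutation p of 0.1, the smallest that 3 against 3 libraries can give. The share was chosen after the values were seen and rests on the same *Ssbp2* counts, so it is not separate support for the call. As a ratio within a library, this share does not depend on how the library was scaled. Without each library in turn the difference was -5.63 to -3.91 percentage points. With *Ssbp4* added to the sum, *Ssbp2* made up 26.4 ± 1.91% in AdLacZ and 22.3 ± 0.484% in Ad*Lmo3* libraries (SD, n = 3 each), again without overlap.

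**Figure D3:**
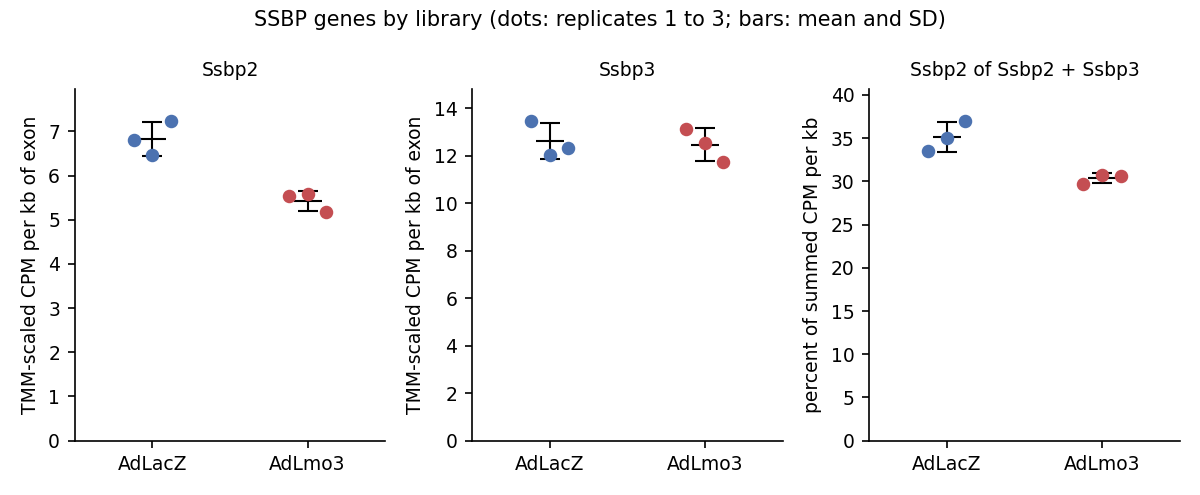
*Ssbp2* (left) and *Ssbp3* (middle) in TMM-scaled CPM per kb of exon and the percentage that *Ssbp2* makes up of their sum (right), by group. Dots are libraries and bars show the mean and SD of 3, with all y axes starting at 0. The *Ssbp2* dots and the share of *Ssbp2* are lower in all Ad*Lmo3* than in all AdLacZ libraries, and the *Ssbp3* dots overlap.

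The bHLH factors TAL1 and LYL1, through which LMO2 complexes contact E-box DNA in blood cells, were not detectable. *Tal1* (ENSMUSG00000028717, chromosome 4, 115056426 to 115071755, plus strand) had 0 counts in all 6 libraries. *Lyl1* (ENSMUSG00000034041, chromosome 8, 84701457 to 84704715, plus strand) had 0, 2 and 1 counts in AdLacZ and 0, 1 and 1 counts in Ad*Lmo3* libraries, under the floor of 3 counts in each.

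Counted as a group, 5 of the 10 members had enough reads to be tested. Among those 5, 0 rose and 1 fell (*Ssbp2*), 2 had groups that did not overlap, both lower (*Ssbp2* and *Ldb1*), and the median log2 fold change was -0.15, beside a median of 0.0013 over all tested genes. Of all tested genes, 26.5% had groups that did not overlap, and 13.2% of all tested genes had them with Ad*Lmo3* lower. Nothing is read from the counts over so few genes.

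Per kb of exon, 4 members stood well above the others. *Lmo4* had the highest level, at 32.3 ± 1.92 CPM per kb over the 6 libraries, followed by *Ldb1* at 27.2 ± 1.99, *Ssbp3* at 12.5 ± 0.654 and *Ssbp2* at 6.14 ± 0.820 (SD, n = 6). The library values of *Lmo4* (29.5 to 34.9) and *Ldb1* (24.3 to 30.2) overlapped, whereas those of *Ldb1*, *Ssbp3* and *Ssbp2* did not overlap from one to the next. *Lmo2* followed at 0.165 ± 0.0371 CPM per kb, and *Lmo1*, at 0 in AdLacZ, had 0.205 ± 0.0591 CPM per kb in the 3 Ad*Lmo3* libraries. *Ldb2* and *Lyl1* were at 0.0421 and 0.0134 CPM per kb, and *Lmo3* and *Tal1* at 0. From *Lmo2* downwards, library values overlapped from one gene to the next, so these genes have no clear order. With the length of the longest transcript in place of all exons, the first 4 levels were 68.3, 40.1, 25.8 and 12.4 CPM per kb, in the same order. Within each library *Lmo4* was above *Ldb1*, by ratios of 1.02, 1.18 and 1.18 in AdLacZ and 1.12, 1.21 and 1.44 in Ad*Lmo3* replicates 1, 2 and 3. These ratios overlapped between the groups (exact permutation p = 0.4, two-sided). Among all tested genes, the mean CPM of *Ldb1* and *Lmo4* stood at the 86.2 and 84.5 percentiles, that of *Ssbp3* at 77.0, of *Ssbp2* at 63.3 and of *Lmo2* at 2.19.

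Across the 6 libraries, the genes whose log2 levels ran most like *Lmo4* were *Gm5141*, *Rnf114* and *Zfp811* (Pearson r 0.993, 0.988 and 0.977). Those most like *Ldb1* were *Tmem110*, *Rpain* and *Col4a5* (r 0.993, 0.983 and 0.982). These are the highest among all tested genes, over 6 points that share libraries and their scaling, and they are given as a description. Among the members, *Ldb1* and *Ssbp2* ran together (r 0.86), and *Lmo4* and *Ssbp3* ran in opposite directions (r -0.88). These were the highest and the lowest r among all pairs of the 5 tested members. Both *Ldb1* and *Ssbp2* were lower in all Ad*Lmo3* than in all AdLacZ libraries, and that group difference enters their r.

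The other genes of the pathway were read from 7 lists of 55 genes, 37 of which could be tested. Of these 37, 1 rose and 0 fell, beside 2.71% and 1.57% of all tested genes. An unadjusted p under 0.05 was reached by 11 of the 37 in edgeR, beside 2634 (20.6%) of all tested genes. The groups did not overlap in 7 with Ad*Lmo3* higher and in 3 with Ad*Lmo3* lower, beside 13.3% and 13.2% of all tested genes, and the median log2 fold change was 0.07.

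LIM homeodomain factors, which bind DNA and use the same LDB scaffolds as LMO proteins, were scarce. Of 12 genes, 4 had no count in any library and 5 could be tested, with none called. The highest per length were *Isl2*, at 0.369 CPM per kb in AdLacZ and 0.513 in Ad*Lmo3*, and *Lhx6*, at 0.194 and 0.231. Their log2 fold changes were 0.47 and 0.24, with adjusted p-values of 0.538 and 0.716 (edgeR).

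The E proteins, the broadly expressed partners of tissue-specific bHLH factors, were all present and testable, with none of the 3 called. *Tcf3* was at 16.7 CPM per kb in AdLacZ and 15.4 in Ad*Lmo3*, and *Tcf12* was at 7.38 and 6.44. *Tcf12* was lower in all 3 Ad*Lmo3* libraries, with a log2 fold change of -0.20 (adjusted p = 0.159, edgeR), and *Tcf3* had -0.12 (adjusted p = 0.593). Of the 3 further class II bHLH genes, the tissue-specific kind that includes TAL1, none had enough counts to test.

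The 4 ID genes encode inhibitors that bind E proteins and keep them off DNA. All 4 were tested and none was called. *Id1* had 17.7, 16.0 and 17.7 CPM in AdLacZ replicates 1, 2 and 3 and 19.2, 27.1 and 30.8 CPM in Ad*Lmo3* replicates 1, 2 and 3. Its groups did not overlap, and the log2 fold change was 0.58 (SE 0.160, adjusted p = 0.0866, edgeR). Without Ad*Lmo3* replicate 1, the lowest of its group, *Id1* passed the test with a log2 fold change of 0.76 and an adjusted p of 0.00782 (edgeR). It also passed with all libraries in DESeq2 (adjusted p = 0.00676) and in edgeR without the filter on low counts (adjusted p = 0.0420). In 10 other settings, which include leaving out each other library, *Id1* did not pass. Its adjusted p was 0.116 in limma voom and at most 0.241, in edgeR without Ad*Lmo3* replicate 2. *Id3*, at 10.5 and 10.9 CPM per kb, had a log2 fold change of 0.06 (adjusted p = 0.845), which turned sign without scaling beyond the library total and without Ad*Lmo3* replicate 1.

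Of the 6 GATA genes, 3 were testable and none was called. *Gata6* was the highest at 3.99 CPM per kb in AdLacZ and 4.46 in Ad*Lmo3*. *Gata3*, a known brake on fat cell differentiation, followed at 1.36 and 1.43. *Gata1*, the GATA factor of red blood cells, had no count.

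Among 7 further proteins of these complexes, 6 were tested and none was called. *Rlim*, which encodes a ubiquitin ligase that targets LDB proteins, was at 24.0 CPM per kb in AdLacZ and 20.8 in Ad*Lmo3*. It was lower in all 3 Ad*Lmo3* libraries but did not pass the test (log2 fold change -0.21, SE 0.0703, adjusted p = 0.147, edgeR). *Kdm1a*, the histone demethylase LSD1, was at 15.0 and 15.1 CPM per kb, with a log2 fold change of 0.00 that turned sign without scaling beyond the library total.

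The last list held 20 LIM-only and PDZ-LIM genes of other families, most of which work at the actin cytoskeleton. Of these, 16 were tested, 1 rose and 0 fell. The one called, *Ldb3*, encodes a PDZ-LIM protein of the muscle Z-disc that shares the LDB abbreviation but is not an LDB scaffold. *Ldb3* had 11.2, 14.0 and 12.4 CPM in AdLacZ replicates 1, 2 and 3 and 16.2, 19.5 and 21.4 CPM in Ad*Lmo3* replicates 1, 2 and 3. The groups did not overlap, and it rose by 0.60 on the log2 scale (SE 0.130, adjusted p = 0.0425, edgeR). The call was lost without AdLacZ replicate 1, 2 or 3 (adjusted p = 0.112, 0.0573 and 0.163, edgeR) and without Ad*Lmo3* replicate 2 or 3 (adjusted p = 0.149 and 0.104). The highest of the list per length were *Csrp1*, at 53.2 and 51.6 CPM per kb (log2 fold change -0.04, adjusted p = 0.858, with the sign turning without AdLacZ replicate 3 or Ad*Lmo3* replicate 1), and *Lims1*, at 26.6 and 22.7 (log2 fold change -0.23, adjusted p = 0.140).

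**Figure D4:**
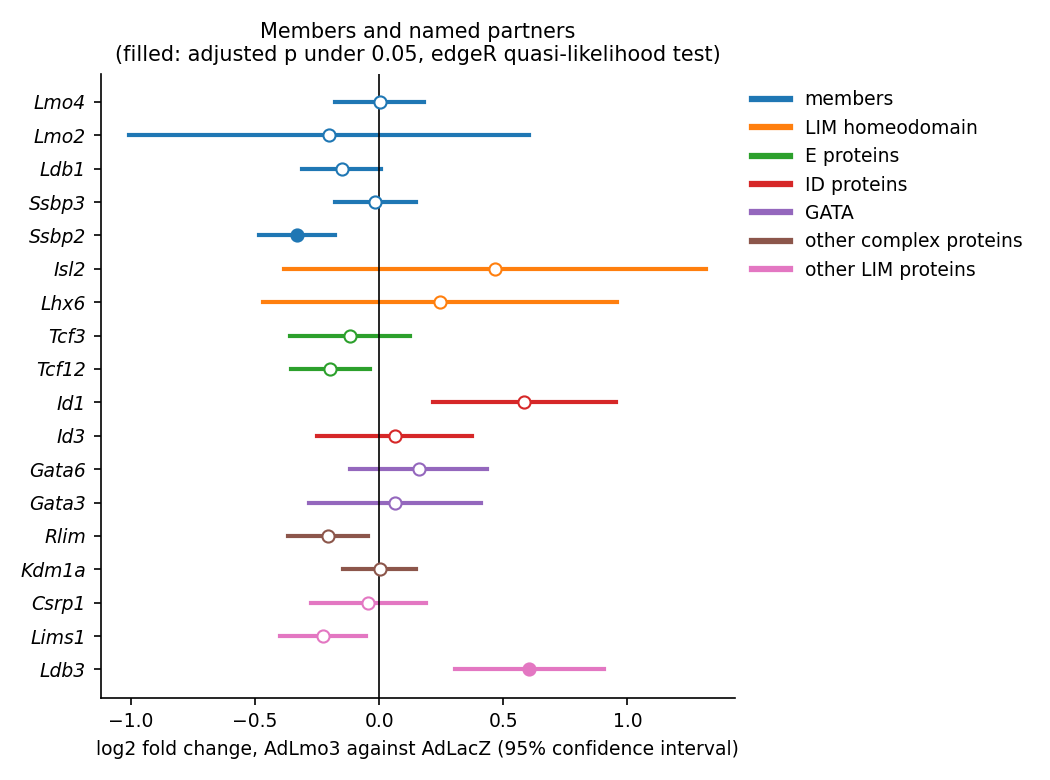
Log2 fold change of Ad*Lmo3* against AdLacZ libraries (x axis) for the 5 tested members and the 13 named genes of the pathway lists (y axis), with 95% confidence intervals, coloured by group. Filled points are genes with an adjusted p under 0.05 in edgeR's quasi-likelihood test, which are *Ssbp2*, at -0.33, and *Ldb3*, at 0.60. *Lmo1* is not drawn, since it was not tested.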

How the data were processed

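RNA-Seq libraries of single reads of 75 bp came from 3 AdLacZ and 3 Ad*Lmo3* infections of 3T3-L1 adipocytes, grouped by the sample labels. The authors deposited unnormalized counts per gene symbol, 1 library per file. The submitters' processing notes name STAR 2.5.0b, DESeq2 1.6.3 and the build mm10, whereas the counting program, annotation and strand setting are not given in the sources used here. The library kit named is not the directional version. Reads given to no gene (7.15% to 8.94%) or to several genes (0.476% to 0.543%) were left out. No pair of replicates agreed within sampling noise (chi-square per degree of freedom 22.9 to 61.6).

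Differences were tested with the quasi-likelihood test of edgeR 4.0.16 under R 4.3.3 (TMM scaling, filterByExpr, no covariate, Benjamini-Hochberg over all tested genes, threshold 0.05), after the steps were tested on simulated data. Alternatives were DESeq2 1.42.0, limma 3.58.1 (voom), other scalings and filters, the replicate block and leaving out each library. The *Lmo1* bound and the *Ssbp2* share were chosen after seeing the data. So were their leave-outs, and the longest transcript and the addition of *Ssbp4* for that share. CPM per kb used the summed exon length of GENCODE M21 on GRCm38. Gene likeness used log2(CPM + 0.5). Floors of 3 counts cover counting error only.

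The members and lists were chosen with earlier results of these data known. Named were all members, each pathway gene past the threshold, the 2 genes highest per length among those tested in each list, and the 3 genes most like *Lmo4* and *Ldb1*. Any other gene named was chosen after its values were seen. The study's own differential expression tables were not used.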

Additional observations from a re-analysis of the deposited data

How the results depend on the processing

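Of the 13 alternatives, DESeq2 moved the number of genes called from 547 to 1104, and leaving out single libraries gave 77 to 501. The members called went from 1 to 2 without a filter on low counts (*Lmo1* and *Ssbp2*) and to 0 with the replicate block. Without single libraries they were between 0 and 1, the 1 being *Lmo1* without Ad*Lmo3* replicate 3. There, and in the fit without a filter, *Lmo1* entered through its Ad*Lmo3* counts alone, as it had 0 counts in each AdLacZ library. Nothing is read from these calls of *Lmo1*. The pathway genes called went from 1 to 3 with DESeq2 and without the filter (*Fhl3*, *Id1* and *Ldb3*), and to between 0 and 2 without single libraries. Same-numbered libraries deviated together by r 0.05, 0.23 and 0.23, beside a mean r of -0.0845 between libraries of different number. The labels do not say that the numbers mark a shared batch, and the main test did not take them as pairs. With the block, 497 genes were called, and *Ssbp2* had an adjusted p of 0.0647 (edgeR) and a log2 fold change of -0.33. Over all alternatives *Ssbp2* stayed between -0.40 and -0.29, with adjusted p-values of 0.00583 to 0.145 (edgeR, DESeq2 or limma). Genes near 0 changed sign. *Lmo4* was at -0.072 without scaling beyond the library total, -0.0015 with voom and -0.00072 with the block, and *Ssbp4* at 0.00077 with voom and 0.00056 with the block. *Id3* was at -0.0082, *Gata3* at -0.013 and *Kdm1a* at -0.071 without that scaling. Without single libraries the log2 fold changes ran from -0.057 to 0.069 for *Lmo4*, -0.38 to 0.016 for *Lmo2*, -0.049 to 0.034 for *Ssbp3*, -0.068 to 0.094 for *Ssbp4*, -0.083 to 0.16 for *Id3*, -0.038 to 0.14 for *Gata3*, -0.040 to 0.040 for *Kdm1a* and -0.14 to 0.039 for *Csrp1*. The cause was not tested. The *Lmo1* bound stayed between 3.29-fold and 4.39-fold. Depth limits *Lmo1*, *Lmo2*, *Ldb2* and *Lyl1*, which rest on at most 19 reads per library.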
